A study of Mus musculus with 6 samples.

Results

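Vitamin A is absorbed in the small intestine both as retinol and as provitamin A carotenoids, and 9 genes of this route were followed in whole mouse ileum: Bco1, Isx, Rbp2, Lrat, Adh1, Dhrs9, Aldh1a1, Aldh1a2 and Crabp2. They were taken by gene symbol, with the brightest probe set that names a single gene, and all 9 were found among the 19938 genes measured, each with 1 probe set. In the enterocyte, carotenoids are cleaved to retinal, retinal and retinol are held by a cytosolic binding protein, and retinol is esterified for export in chylomicrons. A further share of retinol is oxidised to retinal and on to retinoic acid, the ligand of nuclear retinoic acid receptors. Retinoic acid also acts back on the supply side, since it induces the intestinal repressor Isx, which lowers carotenoid cleavage.

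The arrays compared 3 mice labelled Gata6 KO with 3 control mice, with 1 Affymetrix mouse gene array per mouse and total RNA of the whole ileal segment. Controls carried Villin-CreERT2 alone, a tamoxifen-inducible Cre recombinase driven by an epithelial promoter, and the other mice carried Villin-CreERT2 together with GATA6 flox/flox. Every mouse of both groups received tamoxifen (100 mg/ml) on 5 consecutive days at 6 to 8 weeks of age and was killed 28 days later, at a stated age of 10 to 12 weeks (10 weeks in another label). The labels name individual mice and give neither strain nor sex. Villin-driven Cre acts in epithelium, while whole ileum also holds muscle, connective tissue, vessels and immune cells.

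The targeted gene did not read lower in the mice labelled Gata6 KO. Gata6 gave log2 signals of 6.31, 6.33 and 6.5 in control mice and 6.93, 6.81 and 6.86 in the other group, 0.49 higher on the log2 scale (SE 0.08; adjusted p = 0.0162 with limma). This call held without control replicate 2 or 3 and was lost in the other 4 fits that drop 1 array (0.0501 to 0.0623). Whether its probe set covers the deleted exons is not known here, so it cannot check the labels, and the second group is called Gata6 KO by its label only. The log2 signal of Xist was 2.31 on control replicate 3 against 7.39 to 7.81 on the other arrays, and the Y-linked gene Eif2s3y read 5.30 there against 0.271 to 0.615. By these genes control replicate 3 reads as male and every other array as female, so the groups were not matched by sex. Control replicate 1 stood apart from the other controls on the colon marker list (a mean log2 signal of 7.29, against 6.15 and 6.35). Values without control replicate 1 or 3 are given, singly or within a range, where they change a call. They are given for some, but not all, of the genes whose value moved by over 1.5 times. Values without both are given for some genes only. That fit leaves control replicate 2 as the only control, so no spread among controls enters its SE or p-values. The median log2 signal of all probe sets lay between 3.33 and 3.44 on the 6 arrays, and is used below as a mark for dim genes. The number of arrays limits the precision.

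The retinol dehydrogenase Dhrs9 rose and the carotenoid oxygenase Bco1 fell in the arrays labelled Gata6 KO, and the other 7 genes did not pass an adjusted p of 0.05. Dhrs9 was 4.97-fold higher and Bco1 was 1.62-fold lower (n = 3 per group). The retinol binding protein gene Rbp2 was 2.45-fold lower and the homeobox gene Isx was 1.28-fold higher. Both narrowly missed the threshold (limma adjusted p = 0.0567 and 0.0505). Among all 19938 genes 8.24% passed in either direction, 4.99% higher and 3.25% lower. Of the 9 genes 2 passed (22.2%), a higher share that rests on a small count of genes chosen with earlier results known. The split over all genes was 995 higher and 648 lower, and 1562 and 565 with each array centred on its median. The groups did not overlap for 6 of the 9 genes, against 29.3% of all genes. The median log2 fold change was 0.33 over the 9 genes and -0.00 over all genes.

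**Figure D1:**
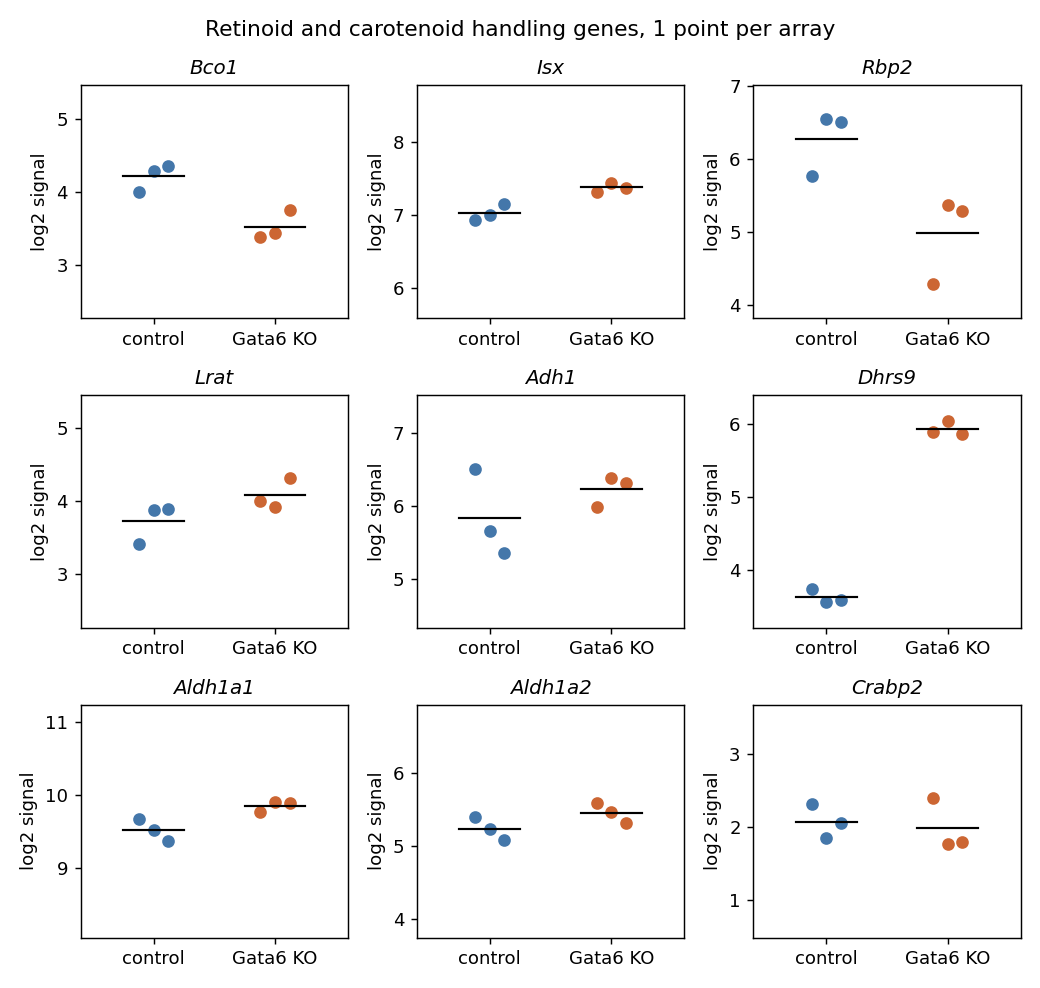
Log2 signal of the 9 retinoid and carotenoid genes, with 1 point per array and a line at the mean of the 3 arrays of each group; every panel spans the same range of log2 units. Dhrs9 sits between 3.55 and 3.73 in controls and between 5.86 and 6.05 in the Gata6 KO group, while Adh1, Aldh1a2 and Crabp2 overlap between the groups.

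The first step of the carotenoid route is symmetric cleavage of beta-carotene to retinal by Bco1. Its log2 signal was 4.0, 4.29 and 4.35 on the control arrays and 3.38, 3.43 and 3.76 on those labelled Gata6 KO. Every control lay above every array of the other group, with a gap of 0.24 between the nearest arrays, and the lowest array lay just under its array's median. Bco1 thus fell by 0.69 on the log2 scale (SE 0.14, 95% interval -1.01 to -0.37, limma adjusted p = 0.0255). The call was kept without control replicate 1 (0.0279) and without Gata6 KO replicate 3 (0.0306). It was lost when the array dropped was control 2 (0.0684), control 3 (0.0984), Gata6 KO 1 (0.0909) or Gata6 KO 2 (0.111), with log2 fold changes between -0.81 and -0.62 in these 6 fits.

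The repressor of Bco1 in the intestine is Isx, a homeobox transcription factor that retinoic acid signalling induces. Isx read 6.93, 7.0 and 7.15 on the control arrays and 7.32, 7.45 and 7.38 on those labelled Gata6 KO. The 2 groups did not overlap and the nearest arrays were 0.17 apart. The log2 fold change was 0.36 (SE 0.09, 95% interval 0.15 to 0.56), and the limma adjusted p of 0.0505 missed the threshold by a narrow margin. It lay between 0.0613 and 0.170 in the 6 fits that leave out 1 array. It was under 0.05 in 6 of 19 alternatives, among them centring of each array on its median (0.0253) and a filter on dim genes (0.0299). Scarb1, the scavenger receptor that takes up carotenoids at the brush border and a further target of Isx, read 5.37, 4.8 and 4.93 in controls and 5.42, 5.25 and 5.15 in the other group. Its log2 fold change of 0.24 (95% interval -0.13 to 0.61, limma adjusted p = 0.391) did not pass, and the groups overlapped. It was 0.41 without control replicate 1 (0.0989) and 0.12 without control replicate 2 (0.653).

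Inside the enterocyte, Rbp2 encodes cellular retinol binding protein type II, which carries retinol and retinal to the enzymes of esterification and reduction. Its log2 signal was 5.76, 6.55 and 6.52 on the control arrays and 4.29, 5.37 and 5.29 on those labelled Gata6 KO. The lowest control and the highest array of the other group were 0.40 apart, and replicate 1 was the lowest array of both groups. The log2 fold change of -1.29 (SE 0.33, 95% interval -2.06 to -0.53) ranked 240th by size among the 19938 genes, yet the spread within groups was wide, at an SD of 0.44 in controls and 0.60 in the Gata6 KO group. The limma adjusted p was 0.0567, and it lay between 0.0560 and 0.182 when 1 array was left out. It was under 0.05 in 7 of 19 alternatives, with the replicate number as a block (0.00354) the smallest; same-numbered arrays were not shown to be pairs.

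Lrat esterifies retinol that is bound to Rbp2, which is the main way retinol is prepared for chylomicrons. It read 3.4, 3.87 and 3.88 in control mice and 4.0, 3.91 and 4.31 in the Gata6 KO group, 0.03 apart at the nearest arrays. The log2 fold change of 0.36 (SE 0.16, 95% interval -0.02 to 0.73, limma adjusted p = 0.226) did not pass, and Lrat passed in none of 19 alternatives. It was 0.20 without control replicate 1, the lowest array (adjusted p = 0.445), and 0.16 with the smooth muscle markers as a covariate (0.866).

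Windows of 250 bases before the start of each gene were read from RefSeq (build GRCm38.p6), where 8 of the 9 genes matched by symbol and Crabp2 did not. These were searched on both strands for the GATA motifs (AGATAA or AGATAG or TGATAA or TGATAG), for nuclear receptor half-sites (AGGTCA or AGTTCA or GGGTCA or GGTTCA), and for direct repeats of these half-sites spaced by 1, 2 or 5 bases (DR1, DR2 and DR5), which overlap the half-sites they are built from. DR2 and DR5 are spacings known from retinoic acid response elements, and DR1 is bound by other receptors such as HNF4 and RXR heterodimers. The windows of the 2 genes that were called and of Rbp2, whose change was the largest of the uncalled genes, are shown 5′ to 3′ on the strand of the gene, with GATA motifs and direct repeats in capitals.
Bco1, chr8:117095615-117095864, plus strand: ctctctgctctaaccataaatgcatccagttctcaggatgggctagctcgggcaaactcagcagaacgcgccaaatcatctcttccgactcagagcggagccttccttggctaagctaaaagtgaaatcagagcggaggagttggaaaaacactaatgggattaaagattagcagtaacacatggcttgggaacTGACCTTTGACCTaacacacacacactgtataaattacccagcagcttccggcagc
Rbp2, chr9:98490287-98490536, plus strand: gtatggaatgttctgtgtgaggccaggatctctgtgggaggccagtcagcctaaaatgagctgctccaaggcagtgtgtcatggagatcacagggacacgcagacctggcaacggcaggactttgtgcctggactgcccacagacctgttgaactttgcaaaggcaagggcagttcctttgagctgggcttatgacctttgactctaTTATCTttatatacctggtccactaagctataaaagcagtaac
Dhrs9, chr2:69380212-69380461, plus strand: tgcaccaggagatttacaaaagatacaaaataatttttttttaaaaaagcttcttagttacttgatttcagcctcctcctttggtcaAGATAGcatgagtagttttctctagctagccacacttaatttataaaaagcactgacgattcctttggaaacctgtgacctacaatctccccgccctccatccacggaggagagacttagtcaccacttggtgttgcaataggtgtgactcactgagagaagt
In the Bco1 window the capitals mark a DR1 from 56 to 44 bases before the start, AGGTCAAAGGTCA on the opposite strand; a DR1 was found in 0.166% of 32536 such windows of all genes. In the Rbp2 window they mark AGATAA on the opposite strand, 43 to 38 bases before the start, and in the Dhrs9 window AGATAG from 163 to 158 bases before it. A GATA motif was found in 26.5% of all windows, and among the other members only in those of Adh1 (2 matches) and of 1 of the 2 starts listed for Aldh1a1 (2 matches). A DR2 was found in 0.175% and a DR5 in 0.0891% of all windows, and neither in a window of the 8 genes. Half-sites were found in 38.6% of all windows, with 2 matches each in those of Bco1 and Rbp2 and 1 each in those of Dhrs9, Isx and that same start of Aldh1a1. These matches are letters in a window and were not measured as binding.

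Retinol is oxidised to retinal by dehydrogenases, and the largest difference among the 9 genes was in this step. Dhrs9, a short-chain dehydrogenase of retinol and some steroids, read 3.73, 3.55 and 3.58 on the control arrays and 5.89, 6.05 and 5.86 on those labelled Gata6 KO. The nearest arrays of the 2 groups were 2.13 apart, while the SD within each group was 0.09 and 0.10. Dhrs9 rose by 2.31 on the log2 scale (SE 0.09, 95% interval 2.10 to 2.52, limma adjusted p = 1.13e-04), the 49th largest change of all genes. It was called in each of 19 alternatives, with log2 fold changes of 2.26 to 2.38 and adjusted p up to 0.0326, the value without control replicates 1 and 3. Its control values lay close to the array median, so the signal there was dim.

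Adh1, a cytosolic alcohol dehydrogenase that also oxidises retinol, showed no comparable difference. It read 6.51, 5.66 and 5.35 in control mice and 5.99, 6.39 and 6.32 in the Gata6 KO group, so control replicate 1 was the highest of all 6 arrays. The log2 fold change was 0.39 with an SE of 0.28 and a 95% interval from -0.27 to 1.05 (limma adjusted p = 0.441). It was 0.73 without control replicate 1 (0.0616) and 0.15 without control replicate 3 (0.809), so a difference of either size lies within the spread of these arrays.

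Retinal is oxidised irreversibly to retinoic acid by the retinaldehyde dehydrogenases. Aldh1a1 is the form common in epithelium, and it read 9.67, 9.51 and 9.37 on the control arrays and 9.76, 9.91 and 9.89 on those labelled Gata6 KO. The groups were 0.09 apart at the nearest arrays, with a log2 fold change of 0.33 (SE 0.10, 95% interval 0.10 to 0.56, limma adjusted p = 0.0914) that did not pass. Only intensity trend with robust moderation, of 19 alternatives, brought it under the threshold (0.0454). Its near-identical neighbour in sequence, Aldh1a7, had a log2 fold change of -0.42 (95% interval -0.79 to -0.05, adjusted p = 0.160), and probes of such paralogs may share signal. The value for Aldh1a7 was -0.24 without Gata6 KO replicate 1. Aldh1a2, known from dendritic cells, mesothelium and other mesenchyme, read 5.40, 5.24 and 5.09 in controls and 5.60, 5.47 and 5.32 in the other group; these overlapped. Its log2 fold change of 0.22 (SE 0.11, 95% interval -0.04 to 0.48, limma adjusted p = 0.269) did not pass, and was 0.15 without control replicate 3 (0.538).

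Crabp2 encodes a binding protein that delivers retinoic acid to its nuclear receptors. It read 2.31, 1.85 and 2.05 in control mice and 2.39, 1.76 and 1.79 in the Gata6 KO group, below the array median on all 6 arrays. The log2 fold change of -0.09 (95% interval -0.55 to 0.36, limma adjusted p = 0.813) did not pass, and its sign turned in 6 of 17 alternatives, quantile normalization among them. A level this dim was not shown to lie above background, so little can be read from it.

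**Figure D2:**
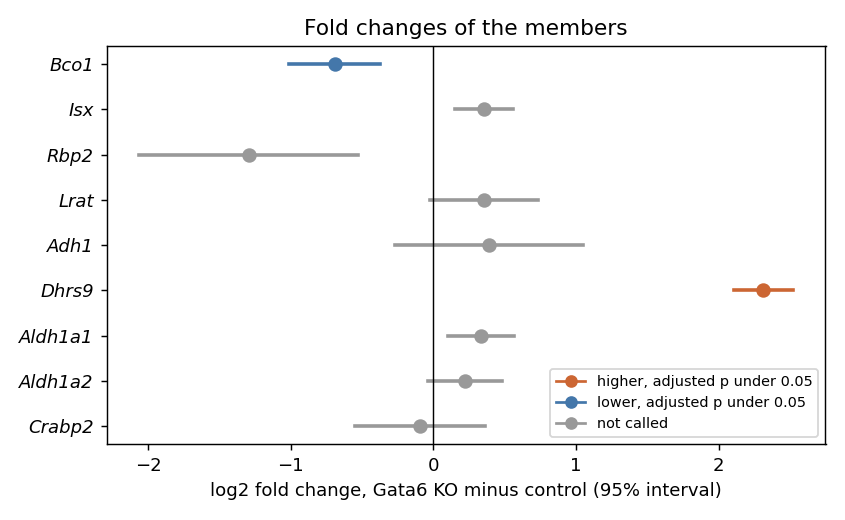
Log2 fold change of each of the 9 genes (Gata6 KO minus control, n = 3 arrays per group) with its 95% interval from the moderated fit; orange marks a higher and blue a lower gene at an adjusted p under 0.05, and grey a gene that was not called. The intervals of Dhrs9 (2.10 to 2.52), Bco1, Rbp2, Isx and Aldh1a1 leave out 0, and those of Lrat, Adh1, Aldh1a2 and Crabp2 include it.

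The profile over the 6 arrays of each called gene was set against those of all other called genes, as the root mean square difference in log2 units after subtracting each gene's control mean. For Bco1 the nearest were Osbpl6 (0.07), Fahd1 (0.08) and Phlpp2 (0.08), with log2 fold changes of -0.73, -0.59 and -0.70. For Dhrs9 the nearest were Ethe1 (0.10), 1810065E05Rik (0.18) and Tst (0.19), with log2 fold changes of 2.21, 2.30 and 2.14. Ethe1 read 5.39, 5.05 and 5.13 in control mice and 7.28, 7.5 and 7.44 in the other group.

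Rbp2 and Bco1 are enterocyte genes, and both had negative log2 fold changes (-1.29 and -0.69). Isx, Lrat and Scarb1 of the same route had positive ones (0.36, 0.36 and 0.24), and none of these was called. Markers of mature enterocytes were measured beside them. In the Gata6 KO group 10 of 13 such markers fell and none rose, at a median log2 fold change of -1.76, and their summed linear signal was 7962 to 10306 on control arrays against 2228 to 3042 on the others; 2 of the 13 lay below the array median throughout. Of 10 general epithelial markers 1 rose and 1 fell, at a median of 0.05 and a summed signal of 11327 to 12498 against 11773 to 13060. Once the mean of the epithelial list entered the fit as a covariate, Rbp2 had a log2 fold change of -1.43 (limma adjusted p = 0.00952), Bco1 of -0.75 (0.00524) and Dhrs9 of 2.33 (3.40e-04). The part of the enterocyte markers in these results was not tested. In RNA of a whole tissue, fewer cells of a type and less RNA per cell cannot be told apart.

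Markers of other tissue were also measured beside Dhrs9 and the Aldh1a genes. Of 10 markers of colon epithelium 4 rose and none fell (median log2 fold change 1.2), with a summed signal of 1896 to 4025 in controls and 8267 to 8914 in the Gata6 KO group. Of 10 smooth muscle markers 1 rose (median 0.34; summed signal 3726 to 4271 against 4357 to 5516), and with their mean as a covariate Dhrs9 had a log2 fold change of 2.31 (0.00935), Rbp2 of -2.32 (0.0287) and Bco1 of -0.91 (0.161). Of 6 mesothelial markers 2 rose (median 0.41; summed signal 132 to 162 against 180 to 237). None of 10 fibroblast markers (median 0.38; summed signal 2269 to 2990 against 3143 to 3839) or 11 dendritic cell and macrophage markers (median 0.23; 275 to 372 against 310 to 472) passed. None of 9 lymphocyte markers (median 0.13; 226 to 245 against 225 to 272) or 7 endothelial markers (median 0.10; 203 to 223 against 218 to 230) passed either. Of 7 markers of exocrine pancreas 1 fell (median -0.10; 52 to 62 against 53 to 60), and 5 lay below the array median on all arrays. The part of these tissues in the results was not tested.

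**Figure D3:**
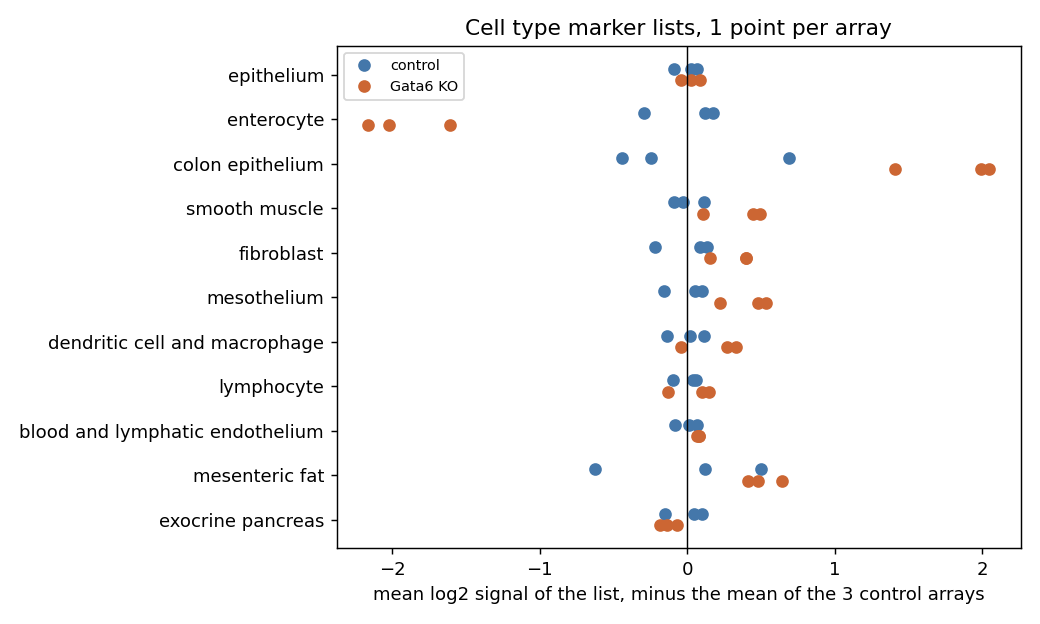
Mean log2 signal of each list of cell type markers, minus the mean of the 3 control arrays, with 1 point per array (blue control, orange Gata6 KO). The enterocyte list is lower and the colon list higher on every Gata6 KO array than on any control, while the epithelial list lies around 0 in both groups.

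Around these 9 genes, 58 others of the retinoid pathway were measured. Of these 8 rose, 6 fell and 44 did not pass, so 24.1% were called against 8.24% of all genes, with a median log2 fold change of 0.03. These shares compare genes of unlike brightness, since 12 of the 58 lay below the array median on all arrays, against 7297 of all 19938 genes. With a filter on mean signal 1328 of 11966 genes rose and 689 fell. The lists were also chosen with earlier results of these data known. Of the called genes Dgat1, Rdh10 and Dhrs3 passed whichever single array was dropped, and the other 11 failed to pass in at least 1 of these 6 fits. With the smooth muscle markers as a covariate none of the 8 higher genes passed by limma and Dgat1 alone of the 6 lower ones did (0.0329). The mean log2 signal of these markers was 7.73, 7.94 and 7.80 in controls and 7.93, 8.31 and 8.27 in the other group. Covariate and group are thus partly confounded, and this fit cannot part them. Of the 14 called genes all but Rdh9 had a wider SE there, as 0.21 against 0.12 for Dhrs3. Without control replicates 1 and 3 the log2 fold change of Akr1b8 was 1.75. No spread among controls enters that fit, so whether a gene passed there is not informative.

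On the uptake and transport side 1 of 7 genes rose and none fell. Rbp4, the plasma carrier of retinol, read 3.94, 4.10 and 4.03 on control arrays and 4.29, 4.65 and 4.46 on those labelled Gata6 KO. It rose by a log2 fold change of 0.44 (SE 0.11; adjusted p = 0.0498 by limma), kept the call only without Gata6 KO replicate 1, and lost it in the other 5 such fits (0.0729 to 0.145). With the smooth muscle covariate the fold change of Rbp4 was 0.18 (0.643). Cd36, a fatty acid and carotenoid transporter, had a log2 fold change of 0.80 (95% interval 0.19 to 1.41, adjusted p = 0.113) and overlapped between groups; without control replicate 1 it passed, at 1.09 (0.0244). Fat tissue also expresses Rbp4, Cd36, Lpl and Lipe. The 7 mesenteric fat markers had a median log2 fold change of 0.70 with none called, and a summed signal of 293 to 786 in controls against 767 to 911 in the other group; their part was not tested.

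Among 4 other binding proteins 1 rose and 1 fell. Fabp5, which can carry retinoic acid, rose by a log2 fold change of 0.52 (SE 0.10; adjusted p = 0.0206 by limma); the call held only without Gata6 KO replicate 3 and was lost in the other 5 fits (0.0525 to 0.0848). Rbp7, which also binds retinol, fell by 0.61 (log2; SE 0.12, adjusted p = 0.0241), but lay below the array median on all 6 arrays, so the size of this decrease is uncertain. Its call held only without control replicate 1 and was otherwise lost (0.0605 to 0.102). Crabp1, a binding protein of retinoic acid, had a log2 fold change of -0.05 (95% interval -0.21 to 0.11), a sign that turned with arrays centred on the median, and Rlbp1, of retinal, had one of 0.15 (adjusted p = 0.562).

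Retinyl ester synthesis and hydrolysis had the highest share of called genes, with 2 of 7 higher and 3 lower. Dgat1, a triglyceride-forming acyltransferase that also esterifies retinol, read 7.96, 8.25 and 8.28 on the control arrays and 6.41, 6.36 and 6.70 on those labelled Gata6 KO. It fell by 1.67 on the log2 scale (SE 0.13, limma adjusted p = 9.19e-04), 3.18-fold, while Lrat, which also esterifies retinol, was not called. Without control replicates 1 and 3 the adjusted p of Dgat1 was 0.0812. The brush border phospholipase gene Plb1, which hydrolyses retinyl esters in the lumen, fell by 0.46 (SE 0.10, 0.0307), and the hormone-sensitive lipase Lipe fell by 0.36 (SE 0.09, 0.0488). Plb1 kept its call only without control replicate 1 (0.0542 to 0.123 in the other 5 fits) and Lipe only without control replicate 2 (0.121 to 0.143). The carboxylesterase genes Ces1d and Ces1e rose by log2 fold changes of 1.10 (SE 0.20, 0.0211) and 0.44 (SE 0.11, 0.0497). Ces1d lost its call in 4 of the 6 fits (0.0611 to 0.0862; kept without control replicate 1 and without Gata6 KO replicate 1) and Ces1e in all but that without control replicate 1 (0.103 to 0.170). These are close paralogs on which probe signal may be shared. Lpl, the lipoprotein lipase that frees retinol from chylomicron esters, had a log2 fold change of 0.92 (SE 0.36, adjusted p = 0.175; 0.51 without control replicate 2), and Awat2, an acyltransferase, had one of -0.14 (0.645).

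Of 18 other enzymes that convert retinol and retinal into each other 3 rose and 2 fell. Rdh10, which supplies retinal for retinoic acid synthesis, read 6.63, 6.67 and 6.78 in controls and 7.32, 7.36 and 7.25 in the Gata6 KO group. It rose by a log2 fold change of 0.61 (SE 0.08; adjusted p = 0.00506 by limma). Dhrs3, which works in the opposite direction and reduces retinal to retinol, read 6.52, 6.26 and 6.10 in controls and 7.18, 7.32 and 7.12 in the other group. It rose by 0.92 (SE 0.12, 0.00607). Both lost the call with the smooth muscle covariate (0.139 for Rdh10 and 0.154 for Dhrs3) and without control replicates 1 and 3 (0.104 and 0.0921), with fold changes of like size, and Dhrs3 also without moderation (0.0740). Dhrs9 and Rdh10 on the one side of this step and Dhrs3 on the other were thus higher in the same arrays. Others of the list were lower, namely Rdh11 (-0.65) and Rdh9 (-0.87), and the median of the 18 was 0.03.

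Akr1b8, an aldo-keto reductase able to reduce retinal, rose by 1.30 (SE 0.26, limma adjusted p = 0.0279), with control replicate 1 at 6.32 and the other controls at 5.21 and 5.44. It kept the call only without that array, at 0.00194, and lost it in the other 5 fits (0.0599 to 0.112). Rdh11, a retinal reductase, fell by 0.65 (SE 0.14, 0.0307), and Rdh9, of a cluster of similar retinol and steroid dehydrogenases, fell by 0.87 (SE 0.20, 0.0456). Rdh11 kept the call only without control replicate 3 (0.0714 to 0.119 in the others) and Rdh9 only without Gata6 KO replicate 1 (0.0858 to 0.161). With the smooth muscle covariate the fold change of Rdh9 was -0.24 (0.610). Dhrs4 and Dhrs7b had log2 fold changes of -0.15 and 0.08, and neither passed.

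**Figure D4:**
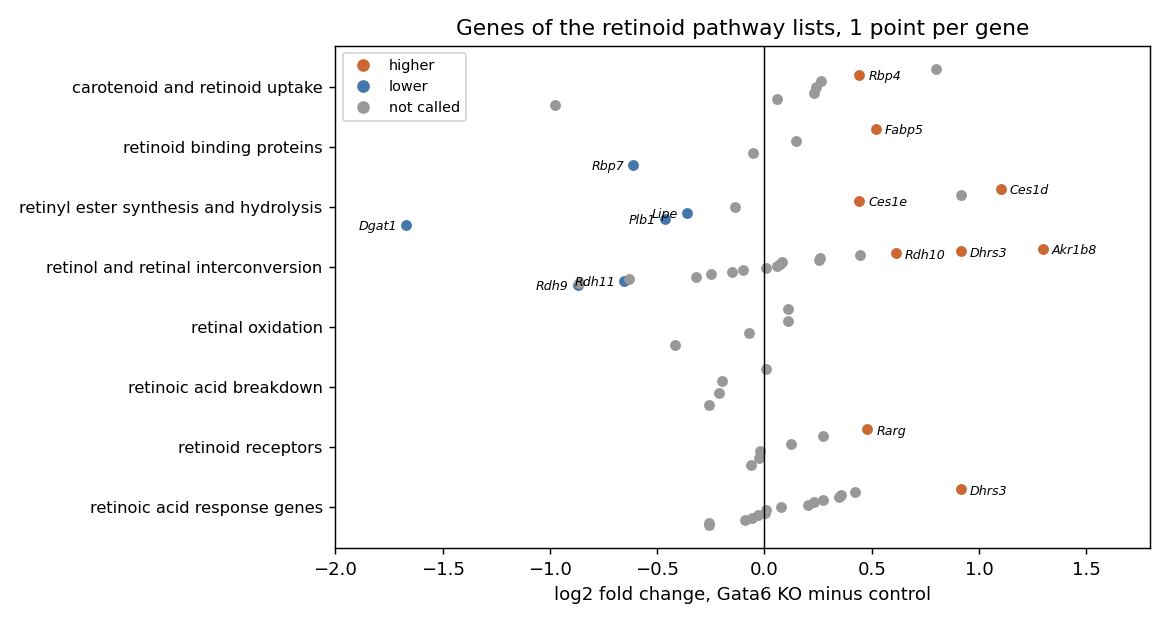
Log2 fold change (Gata6 KO minus control) of each measured gene of the retinoid pathway lists, ordered by role, with 1 point per gene; orange genes were higher and blue ones lower at an adjusted p under 0.05, and grey ones were not called. Dgat1 lies farthest to the left at -1.67 and Akr1b8 farthest to the right at 1.30. No gene of retinal oxidation or retinoic acid breakdown was called, in lists of 4 genes each, where 8.24% of all genes were.

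None of 4 other genes of retinal oxidation and none of 4 genes of retinoic acid breakdown passed with limma. With 8.24% of all genes called, lists of 4 genes are too short for this to say much. Of the 4 oxidation genes 2 lay below the array median on all arrays. Cyp26a1, the inducible retinoic acid hydroxylase, lay below the array median on all arrays with a log2 fold change of 0.01, and Cyp26b1 read 3.98 ± 0.13 in controls and 3.72 ± 0.17 in the other group (SD, n = 3; 95% interval of the difference -0.52 to 0.00). Cyp26a1 was named after its value was seen. Cyp2s1, a further oxidase of retinoic acid, had a log2 fold change of -0.21 (95% interval -0.40 to -0.02, limma adjusted p = 0.175). Aldh1a3, the third retinaldehyde dehydrogenase, had one of -0.07 (95% interval -0.28 to 0.13).

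Of the 6 receptor genes only Rarg, a retinoic acid receptor, passed. It read 3.98, 3.99 and 4.16 on the control arrays and 4.49, 4.58 and 4.49 on those labelled Gata6 KO and rose by a log2 fold change of 0.48 (SE 0.08; adjusted p = 0.0163 by limma). The call held without control replicate 2 or 3 and was lost in the other 4 fits (0.0501 to 0.0754). Rxra, its common partner in the intestine, had a log2 fold change of -0.06 (95% interval -0.29 to 0.16), and Rxrb one of 0.13 (-0.06 to 0.31).

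Genes known to respond to retinoic acid were called at a share near that of all genes. Of 15 measured, which include Isx and Crabp2, Dhrs3 alone rose and none fell, 6.67% against 8.24% of all genes. Their median log2 fold change was 0.08, and 3 of the 15 lay below the array median on all arrays. Tgm2, the tissue transglutaminase, read 8.19, 8.22 and 8.28 in control mice and 8.88, 8.49 and 8.35 in the other group, without overlap, and its log2 fold change of 0.35 (SE 0.14; adjusted p = 0.174 by limma) did not pass. It was 0.19 without Gata6 KO replicate 1, the highest array (0.267).

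**Figure D5:**
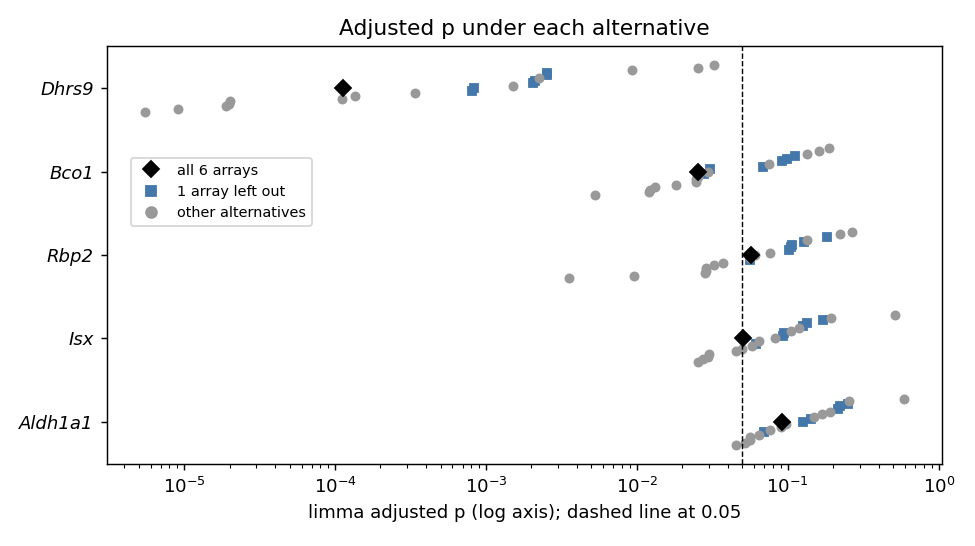
Limma adjusted p on a log axis for 5 of the 9 genes, with a diamond for the fit of all 6 arrays, squares for the 6 fits that leave out 1 array and grey points for the other alternatives. Dhrs9 lies left of the dashed line at 0.05 throughout (5.47e-06 to 0.0326), while Bco1 (0.00524 to 0.188), Rbp2, Isx and Aldh1a1 lie on both sides of it.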

How the data were processed

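Each mouse has a column of log2 signals by probe set, deposited by the authors; the submitters' processing notes name Affymetrix Expression Console. How background, normalization and probe summary were handled is not stated in the labels or notes, and base 2 was inferred from the range of values. Of 35557 probe sets, 21789 name 1 gene, 1621 name several and 12147 are unnamed here; 19938 genes were tested, each by its brightest probe set, with no filter. Of these, 19856 had identifiers in the RefSeq table of GRCm38.p6.

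Limma 3.58.1 (R 4.3.3; lmFit, eBayes) fitted Gata6 KO minus control, two-sided, with Benjamini-Hochberg adjustment over all genes and a threshold of 0.05; SEs are moderated. Simulated arrays of these 19938 genes had independent normal noise and few changed genes. There limma recovered 47.2%, 97.4% and 100% of genes changed by 0.5, 1 and 2 log2 units. These shares average over genes of all spreads and need not hold for a gene of wide spread. The members and lists were chosen with earlier results of these data known. Named genes are the members, every called gene of a pathway list and its 2 brightest others, and the 3 nearest profiles of each called member. Motifs were chosen after the values were seen. Alternatives covered scaling, dim genes, probe sets, moderation, array weights, replicate numbers, single arrays and tissue covariates. Replicates are individual mice, and p-values measure the spread between them. Figures used matplotlib 3.10.9.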

Additional observations from a re-analysis of the deposited data

How the results depend on the processing

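Dhrs9 kept its direction and call in all 19 alternatives. Bco1 kept its direction in all 19 and lost the call with every probe set tested on its own (adjusted p 0.0750), without moderation (0.134), with the smooth muscle covariate (0.161), without control replicates 1 and 3 (0.188; chosen after seeing the data) and in 4 of the 6 fits without 1 array (0.0684 to 0.111; all 6 spanned 0.0279 to 0.111). Rbp2 gained a call with arrays centred on the median (0.0370), quantile normalization (0.0325), filters on mean signal (0.0286) or on 3 arrays above the median (0.0283), the epithelial (0.00952) or smooth muscle covariate (0.0287) and the replicate block (0.00354). Isx gained one with centring (0.0253), the same filters (0.0299 and 0.0298), the mean of probe sets (0.0499), trend and robust moderation (0.0274) and array weights (0.0451), and Aldh1a1 with trend and robust moderation (0.0454). The fold change of the dim gene Crabp2 turned sign with quantile normalization (0.9995), the smooth muscle covariate (0.184), without control replicates 1 and 3 (0.878) and in 3 of the 6 fits without 1 array (0.957 to 0.994; all 6 spanned 0.315 to 0.994); both filters removed it, so they gave no value. Of the brightest uncalled pathway genes, sign turned for Crabp1 (0.977, centring), Rxra (0.979 without control replicate 3, where the 6 fits without 1 array spanned 0.554 to 0.979, and 0.990 without control replicates 1 and 3) and Awat2 (0.921 with the smooth muscle covariate, 0.980 without control replicate 1, where the 6 fits spanned 0.0960 to 0.980, and 0.297 without control replicates 1 and 3).

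So 2 members were higher with centring, either filter, the mean of probe sets or array weights, and 3 with trend and robust moderation. Lower members numbered 2 with centring, quantile normalization, either filter, the epithelial covariate or the replicate block, and 0 by limma with every probe set, without moderation or without control replicates 1 and 3; fits without 1 array gave 0 to 1. Of the pathway genes, 3 were higher and 1 lower with every probe set, and 1 and 1 without moderation. There were 0 and 1 with the smooth muscle covariate, and 7 and 2 with the replicate block. Fits without 1 array gave 2 to 6 and 1 to 4. Over all genes, 1562 were higher with centring (565 lower); 491 and 406 features with every probe set, 168 and 106 without moderation, 55 and 57 with the smooth muscle covariate, and 25 and 11 without control replicates 1 and 3. Without 1 array the counts were 320 to 806 higher and 277 to 597 lower. Fewer arrays were fitted in those settings, and without control replicates 1 and 3 no spread among controls was left. For the others the cause was not tested. Deviations of same-numbered arrays correlated at 0.04, -0.04 and 0.15, so the replicate block had no shown pairing behind it. Signal over background is unknown, which limits, among others, Crabp2, Rbp7 and the low ends of Bco1 and Lrat.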

Other observations

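Bco2, the mitochondrial oxygenase that cleaves carotenoids off centre, read 4.99, 3.74 and 4.17 in control mice and 2.84, 3.47 and 3.66 in the Gata6 KO group. The groups were 0.08 apart at the nearest arrays, and the log2 fold change of -0.97 (95% interval -1.76 to -0.18, limma adjusted p = 0.132) did not pass; Bco2 was named after its values were seen. On Gata6 KO replicate 1 Bco2 lay below the median of that array (3.38), so the size of its difference is uncertain. Both carotenoid oxygenases had a negative fold change, of which that of Bco1 alone was called.

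Among the measured pathway genes, 2 had more than 1 probe set. The 7 probe sets of Plb1 had differences between group means of -0.46 to -0.04 on the log2 scale, and the brightest, which was used, had the largest. With the mean of the 7 the adjusted p of Plb1 was 0.110. The 2 probe sets of Fabp5 had differences of 0.45 and 0.52.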
